A study of Mus musculus with 6 samples.

Results

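Glucose breakdown to lactate and its side branch, the pentose phosphate pathway, were followed gene by gene in mouse CD4+ T cells after activation. A fixed list of 42 genes, matched by NCBI gene ID to 18446 genes in the expression table, covered glucose uptake, every enzyme step of glycolysis with its isoforms, lactate production and export, the pentose phosphate enzymes and 4 genes of oxygen and glucose sensing. All 42 were found. Naive CD4+ T cells (CD44 low, CD62L high) were purified from the spleen and lymph nodes of C57BL/6 mice aged 6 to 8 weeks with a flow cytometer and kept for 0, 6 or 48 h in medium with antibodies to CD3 and CD28, which stand in for antigen and its co-signal. The 6 groups were cells from Zak-deficient mice and from wild-type (WT) mice at each of the 3 times. Zak, also called Map3k20, is a stress-activated kinase of the MAP kinase cascade.

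Each group held 1 library, so no difference below has a replicate check and none was tested. The sample labels name the genotype as Zak-/-, whereas the growth protocol speaks of a deficiency conditional to T cells. The sources used here name neither the Cre driver nor the number of mice behind each library. The level of Map3k20 itself was 0.10, 0.10 and 1.61 FPKM at 0, 6 and 48 h under the Zak-deficient label, against 0.17, 0.19 and 1.35 FPKM in WT. It did not separate the labels at 48 h, and a gene-level value cannot show the loss of part of a gene, so the libraries are called by their label throughout. FPKM (fragments per kilobase of transcript, scaled by the number of mapped fragments) summed to between 496045 and 546113 per library, and read depth is not known from these values. Markers of T cells were high in every library (Cd4 at 217.6 to 357.2 FPKM, summed T-cell markers at 1370 to 1670 FPKM), while summed B-cell markers stood at 3.33 to 7.64 FPKM and summed myeloid markers at 1.18 to 5.32 FPKM. Summed naive T-cell markers stood at 2840, 1660 and 612 FPKM at 0, 6 and 48 h under the Zak-deficient label, against 2890, 1700 and 611 FPKM in WT, and all 5 of them were 2-fold or more lower at 48 h than at 0 h under both labels. They moved with the time differences described below, and their part in those was not tested. The B-cell sum was 7.18, 5.41 and 7.64 FPKM under the Zak-deficient label, against 3.33, 4.88 and 5.45 FPKM in WT, and its part in any difference between the labels was not tested.

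Glycolysis splits glucose into pyruvate in a chain of cytosolic enzymes, and lactate dehydrogenase then turns pyruvate into lactate while restoring the NAD+ that the chain needs. Resting naive T cells make most of their energy in mitochondria, and activated T cells are known for high glucose uptake and lactate release even with oxygen present. The pentose phosphate pathway branches off at glucose 6-phosphate: its oxidative arm yields NADPH, and its non-oxidative arm yields ribose for nucleotides and returns carbon to glycolysis. Hif1a and Myc are transcription factors known to raise many genes of glycolysis.

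Most of the list was higher at 48 h than at 0 h by 2-fold or more, and the size of the difference varied by step. Summed over 15 genes of the enzyme steps, glycolysis made up 0.264, 0.489 and 1.79% of all FPKM at 0, 6 and 48 h under the Zak-deficient label, against 0.275, 0.461 and 1.88% in WT. Gapdh alone made up 0.549% of the 48 h library labelled Zak-deficient and 0.575% of the WT one, the largest part of any gene in the sum. The 7 pentose phosphate genes made up 0.0386, 0.0561 and 0.0734% under the Zak-deficient label, against 0.0378, 0.0523 and 0.0758% in WT, a much smaller gain. FPKM is a share of each library, so these values do not say how much RNA a cell held, and in bulk samples fewer cells of a type cannot be told apart from less RNA per cell.

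**Figure D1:**
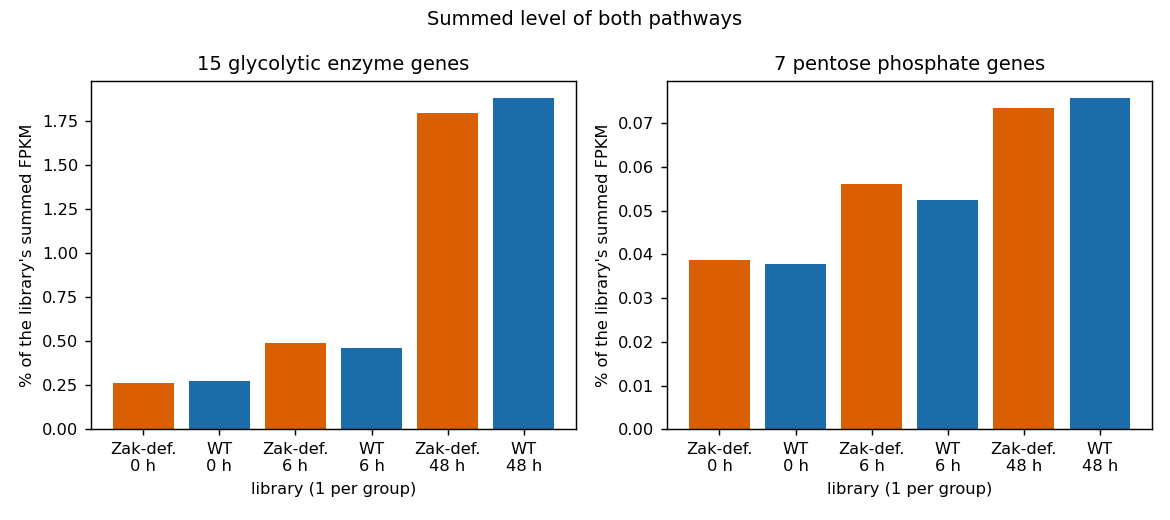
Bars give the summed FPKM of 15 glycolytic enzyme genes (left) and 7 pentose phosphate genes (right) as a percent of all FPKM in each of the 6 libraries, 1 per group. The glycolytic bars stand at 1.79% (Zak-deficient label) and 1.88% (WT) at 48 h and at 0.264 and 0.275% at 0 h, and the 2 labels lie close together at every time.

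Differences are given on the scale of log2(FPKM + 1), which understates the change of genes near 0, and a gene is counted when it differs by 2-fold or more on that scale and averages at least 1 FPKM over the 6 libraries. 10347 genes and 40 of the 42 list genes passed that filter. Hk3 and Slc2a6 did not, with means of 0.0983 and 0.74 FPKM, and Aldoc and Egln3 passed only through their 48 h values. At 48 h against 0 h, 27 list genes were higher and 1 was lower under the Zak-deficient label, where 18.4% of all filtered genes were higher and 12.0% lower. In WT, 26 were higher and 1 was lower, against 17.8% and 12.3% of all filtered genes. All 26 genes counted higher in WT were among the 27, and Ldhb was the other one. The median over the list was 1.44 under the Zak-deficient label and 1.45 in WT, beside 0.06 and 0.00 over all filtered genes.

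**Figure D2:**
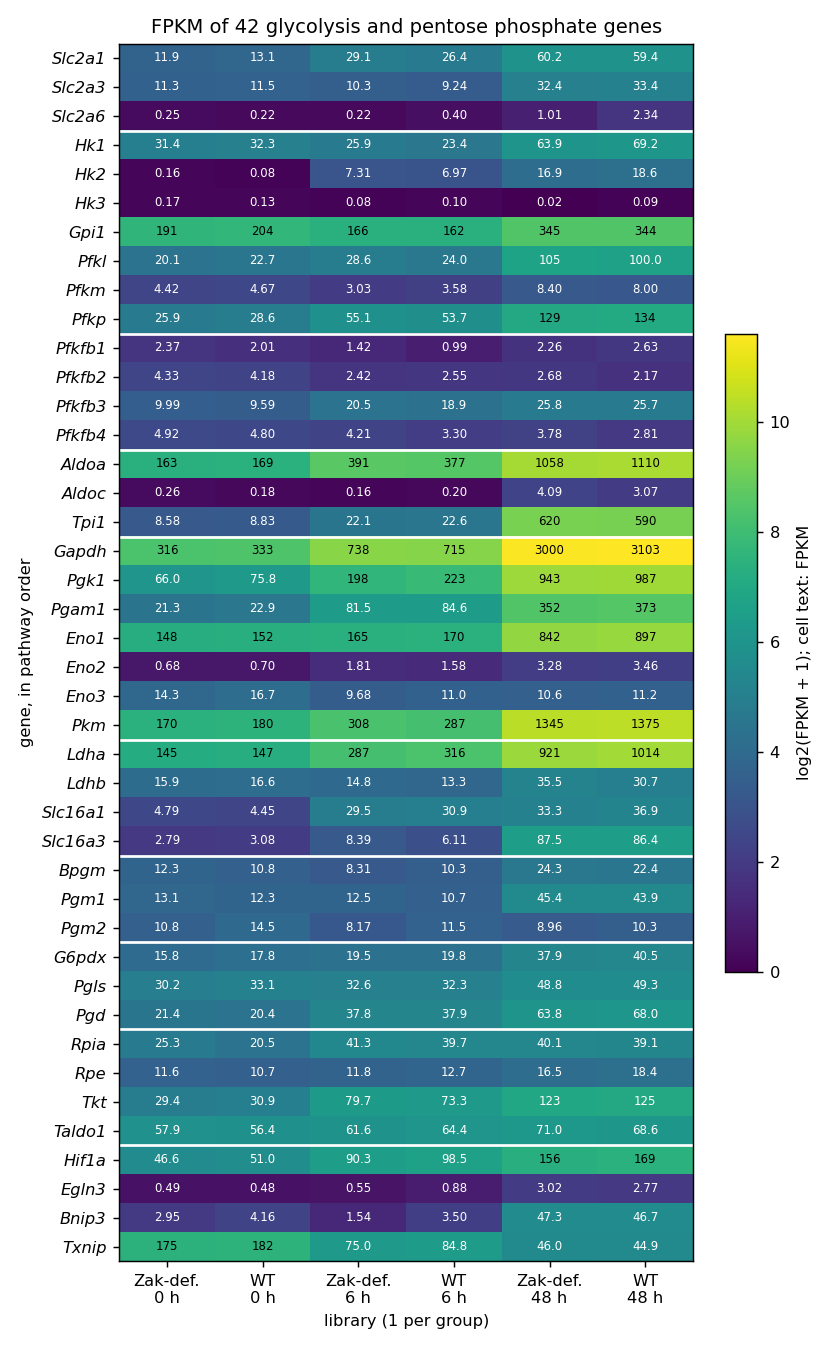
Each cell gives the FPKM of a gene (rows, in pathway order, with white lines between functional groups) in a library (columns, 1 per group), coloured by log2(FPKM + 1). Gapdh reaches 3000.4 and 3102.5 FPKM at 48 h, while Hk3 stays at 0.17 FPKM or less in all 6 libraries.

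The first 6 h held a smaller share of the gain. At 6 h against 0 h, 11 list genes were higher and 1 lower under the Zak-deficient label, where 9.08% of filtered genes were higher and 1.52% lower. WT had 9 higher and 1 lower, against 8.93% and 1.39% of filtered genes. Of these, 8 were counted in both genotypes, namely Hk2, Aldoa, Tpi1, Gapdh, Pgk1, Pgam1, Slc16a1 and Tkt, and Txnip was the lower gene in both. Pfkp, Slc2a1 and Slc16a3 were counted only under the Zak-deficient label and Ldha only in WT. All 4 lie near the 2-fold line: Pfkp differed by 1.06 under the Zak-deficient label and by 0.88 in WT, Slc2a1 by 1.22 and 0.96, Slc16a3 by 1.31 and 0.80, and Ldha by 0.98 and 1.10. At 48 h against 6 h, 23 list genes were higher and 0 lower under each label, beside 10.8% and 6.55% of filtered genes under the Zak-deficient label and 9.32% and 6.14% in WT, and 22 of the 23 were the same genes. The comparisons at 6 h and 48 h within a genotype share a library, so their values are given side by side and not related to each other.

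**Figure D3:**
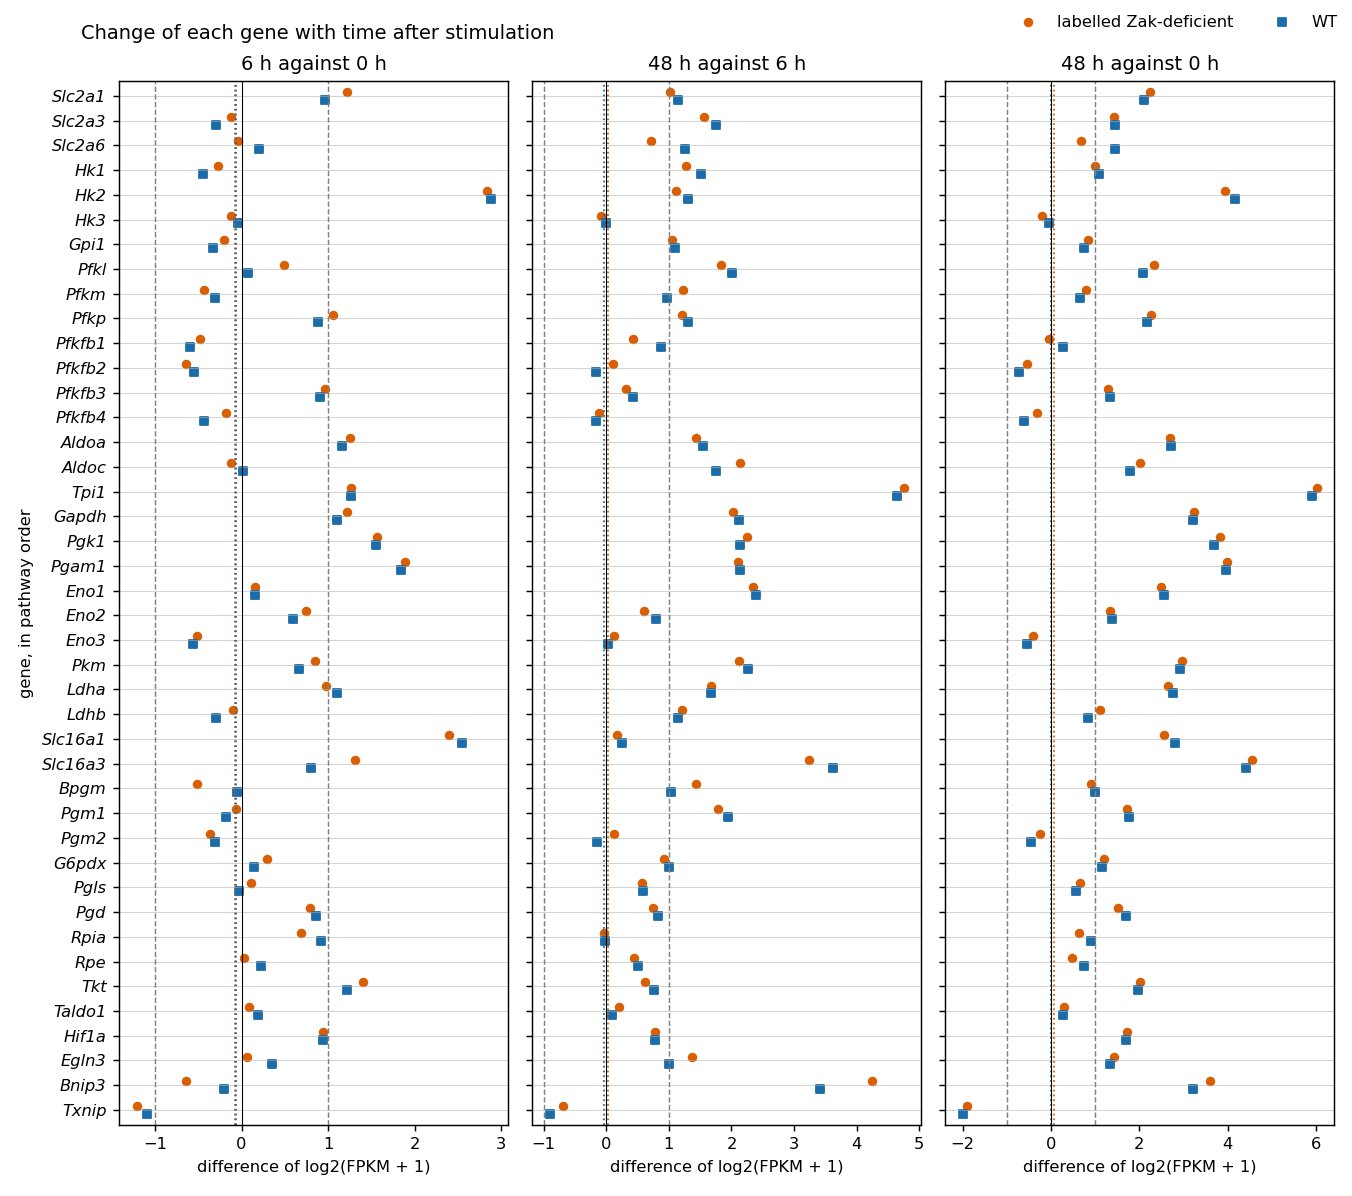
Points give the difference of log2(FPKM + 1) between 2 times for each gene (rows), with circles for libraries labelled Zak-deficient and squares for WT. Dashed lines mark 2-fold, dotted lines the median of all filtered genes; Tpi1 lies farthest right in the panels that hold 48 h, at 6.02 and 5.91 for 48 h against 0 h.

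Glucose enters T cells through transporters of the Slc2a family. Slc2a1, which encodes Glut1, the carrier most linked to T-cell activation, stood at 11.9, 29.1 and 60.2 FPKM at 0, 6 and 48 h under the Zak-deficient label, against 13.1, 26.4 and 59.4 FPKM in WT. Slc2a3, which encodes the high-affinity carrier Glut3, measured 11.3, 10.3 and 32.4 FPKM at 0, 6 and 48 h under the Zak-deficient label, against 11.5, 9.24 and 33.4 FPKM in WT. Both were thus higher at 48 h, but at 6 h only Slc2a1 was higher than at 0 h: its difference was 1.22 under the Zak-deficient label and 0.96 in WT, while that of Slc2a3 was -0.12 under the Zak-deficient label and -0.29 in WT. Their levels were nearly equal at 0 h, and at 6 h Slc2a1 held 73.4% of the FPKM of the 3 carriers under the Zak-deficient label and 73.3% in WT. Slc2a6, which encodes a carrier found on lysosomes in mouse macrophages, was low in all libraries, with 1.01 FPKM at 48 h under the Zak-deficient label and 2.34 FPKM in WT.

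Hexokinases trap glucose in the cell by phosphorylation, and here the isoform that was nearly absent at rest appeared within 6 h. Hk2, the regulated isoform, had 0.16, 7.31 and 16.9 FPKM at 0, 6 and 48 h under the Zak-deficient label, against 0.08, 6.97 and 18.6 FPKM in WT. The difference at 48 h against 0 h was 3.95 under the Zak-deficient label and 4.18 in WT and that at 6 h against 0 h was 2.84 under the Zak-deficient label and 2.88 in WT. Hk1, the isoform present in most tissues, stood at 31.4, 25.9 and 63.9 FPKM at 0, 6 and 48 h under the Zak-deficient label, against 32.3, 23.4 and 69.2 FPKM in WT, so it was slightly lower at 6 h than at 0 h in both genotypes. Hk1 gave 79.0% of hexokinase FPKM at 48 h under the Zak-deficient label and 78.7% in WT, with Hk2 at 21.0 and 21.2%, and Hk1 gave 99.0 and 99.4% at 0 h. Hk1 therefore stayed the more abundant transcript at every time. Hk2 lies on mouse chromosome 6 (GRCm38.p6, 82725025 to 82774454, minus strand).

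Phosphoglucose isomerase is encoded by Gpi1, which was already abundant at rest and measured 191, 166 and 345 FPKM at 0, 6 and 48 h under the Zak-deficient label, against 204, 162 and 344 FPKM in WT. Its difference at 48 h against 0 h was 0.85 under the Zak-deficient label and 0.75 in WT, below 2-fold. Phosphofructokinase commits the sugar to glycolysis, and its liver, muscle and platelet isoforms behaved unlike one another. Pfkp, the platelet isoform, had 25.9, 55.1 and 129 FPKM at 0, 6 and 48 h under the Zak-deficient label, against 28.6, 53.7 and 134 FPKM in WT. Pfkl, the liver isoform, stood at 20.1, 28.6 and 105 FPKM at 0, 6 and 48 h under the Zak-deficient label, against 22.7, 24.0 and 99.97 FPKM in WT. Pfkm, the muscle isoform, measured 4.42, 3.03 and 8.40 FPKM at 0, 6 and 48 h under the Zak-deficient label, against 4.67, 3.58 and 8.00 FPKM in WT. The platelet isoform was the largest at every time and took its greatest share at 6 h, at 63.5% under the Zak-deficient label and 66.0% in WT. The liver isoform showed nearly all of its gain after 6 h: its difference at 48 h against 6 h was 1.84 under the Zak-deficient label and 2.01 in WT, against 0.49 under the Zak-deficient label and 0.08 in WT at 6 h against 0 h. Pfkm held 3.47% of the step at 48 h under the Zak-deficient label and 3.31% in WT, and 8.77 and 8.34% at 0 h.

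The Pfkfb genes encode enzymes that make and remove fructose 2,6-bisphosphate, an activator of phosphofructokinase. At 48 h against 0 h, 1 of the 4 was counted higher under each label. This is near the shares of all filtered genes, 18.4% under the Zak-deficient label and 17.8% in WT, so the count says little about the family. Pfkfb3, the isoform with the highest ratio of kinase to phosphatase activity, had 9.99, 20.5 and 25.8 FPKM at 0, 6 and 48 h under the Zak-deficient label, against 9.59, 18.9 and 25.7 FPKM in WT, and most of that gain was present at 6 h. Its difference at 48 h against 0 h was 1.29 under the Zak-deficient label and 1.33 in WT. Pfkfb2 and Pfkfb4 were lower at 48 h by less than 2-fold, with differences of -0.53 under the Zak-deficient label and -0.71 in WT for Pfkfb2 and of -0.31 under the Zak-deficient label and -0.61 in WT for Pfkfb4. Pfkfb1 stayed between 0.99 and 2.63 FPKM. The share of Pfkfb3 in the step was 46.2, 71.8 and 74.8% at 0, 6 and 48 h under the Zak-deficient label, against 46.6, 73.4 and 77.1% in WT.

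Aldolase and triose phosphate isomerase make the 3-carbon sugars. Aldoa stood at 163, 391 and 1058 FPKM at 0, 6 and 48 h under the Zak-deficient label, against 169, 377 and 1110.3 FPKM in WT. It held at least 99.6% of aldolase FPKM in every library, and Aldoc, its brain isoform, reached 4.09 FPKM at 48 h under the Zak-deficient label and 3.07 FPKM in WT. Tpi1 stood apart from all other list genes. Tpi1, which lies on chromosome 6 (GRCm38.p6, 124810586 to 124814158, minus strand) and encodes the isomerase, measured 8.58, 22.1 and 620.2 FPKM at 0, 6 and 48 h under the Zak-deficient label, against 8.83, 22.6 and 590.2 FPKM in WT. Its rank among all 18446 genes was 6580, 3849 and 123 under the Zak-deficient label, against 6526, 3707 and 126 in WT, whereas the enzymes on either side of it were already among the abundant genes at rest. At 48 h it was 64.8-fold above its 0 h level under the Zak-deficient label and 60.1-fold in WT on the FPKM + 1 scale. The difference at 48 h against 6 h was 4.75 under the Zak-deficient label and 4.64 in WT, and the 6 h level was 3.56% of the 48 h level under the Zak-deficient label and 3.84% in WT. By 50-base words, 6.83% of the transcript sequence of Tpi1 recurs in other annotated genes, none of which is in the table.

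Lower glycolysis, which harvests ATP and NADH, held the most abundant transcripts of the list. Gapdh, the glyceraldehyde phosphate dehydrogenase, had 316, 738 and 3000.4 FPKM at 0, 6 and 48 h under the Zak-deficient label, against 333, 715 and 3103 FPKM in WT. It ranked 16th of all genes at 48 h under the Zak-deficient label and 12th in WT. Pgk1, the first ATP-making step, stood at 66.0, 198 and 943 FPKM at 0, 6 and 48 h under the Zak-deficient label, against 75.8, 223 and 987 FPKM in WT. Pgam1, the phosphoglycerate mutase, measured 21.3, 81.5 and 352 FPKM at 0, 6 and 48 h under the Zak-deficient label, against 22.9, 84.6 and 373 FPKM in WT. The 3 genes were each past 2-fold at 6 h and again between 6 h and 48 h in both genotypes, and the largest 48 h difference of the 3 was that of Pgam1, at 3.98 under the Zak-deficient label and 3.97 in WT.

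Eno1 and Pkm, further down the chain, had most of their gain after 6 h. Eno1, the common enolase, had 148, 165 and 842 FPKM at 0, 6 and 48 h under the Zak-deficient label, against 152, 170.0 and 897 FPKM in WT. Its difference was 0.16 under the Zak-deficient label and 0.16 in WT at 6 h against 0 h and 2.34 under the Zak-deficient label and 2.39 in WT at 48 h against 6 h, so at 6 h it stood near its resting level. Pkm, which encodes pyruvate kinase of muscle type, stood at 170.5, 308 and 1345 FPKM at 0, 6 and 48 h under the Zak-deficient label, against 179.8, 287 and 1375 FPKM in WT. A gene-level value cannot separate its PKM1 and PKM2 transcripts. The minor enolases differed in direction: Eno2, the neuronal form, was higher at 48 h by 1.35 under the Zak-deficient label and 1.39 in WT but stayed under 4 FPKM, while Eno3, the muscle form, was lower by less than 2-fold, at -0.40 under the Zak-deficient label and -0.54 in WT. Eno1 held 98.4% of enolase FPKM at 48 h under each label, against 90.8 and 89.7% at 0 h.

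Lactate dehydrogenase has a form that favours lactate production, encoded by Ldha, and a form encoded by Ldhb that favours the return to pyruvate. Ldha measured 145, 287 and 921 FPKM at 0, 6 and 48 h under the Zak-deficient label, against 147, 316 and 1014 FPKM in WT. Ldhb had 15.9, 14.8 and 35.5 FPKM at 0, 6 and 48 h under the Zak-deficient label, against 16.6, 13.3 and 30.7 FPKM in WT. Ldha held 96.3% of the step at 48 h under the Zak-deficient label and 97.1% in WT, and was the main form already at rest, with 90.1 and 89.9%. The Ldhb difference at 48 h against 0 h was 1.11 under the Zak-deficient label and 0.85 in WT, on either side of the 2-fold line.

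The carriers that move lactate across the membrane gained at different times. Slc16a1, which encodes the carrier Mct1 and lies on chromosome 3 (GRCm38.p6, 104638664 to 104658462), stood at 4.79, 29.5 and 33.3 FPKM at 0, 6 and 48 h under the Zak-deficient label, against 4.45, 30.9 and 36.9 FPKM in WT. Slc16a3, which encodes the export carrier Mct4 and lies on chromosome 11 (120948484 to 120959000), measured 2.79, 8.39 and 87.5 FPKM at 0, 6 and 48 h under the Zak-deficient label, against 3.08, 6.11 and 86.4 FPKM in WT. Slc16a1 had reached 88.6% of its 48 h level by 6 h under the Zak-deficient label and 83.7% in WT. Slc16a3 had reached 9.59 and 7.07%. The more abundant carrier was accordingly Slc16a1 at 0 and 6 h and Slc16a3 at 48 h, in both genotypes: Slc16a3 made up 36.8, 22.1 and 72.4% of the pair at 0, 6 and 48 h under the Zak-deficient label, against 40.9, 16.5 and 70.1% in WT.

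**Figure D4:**
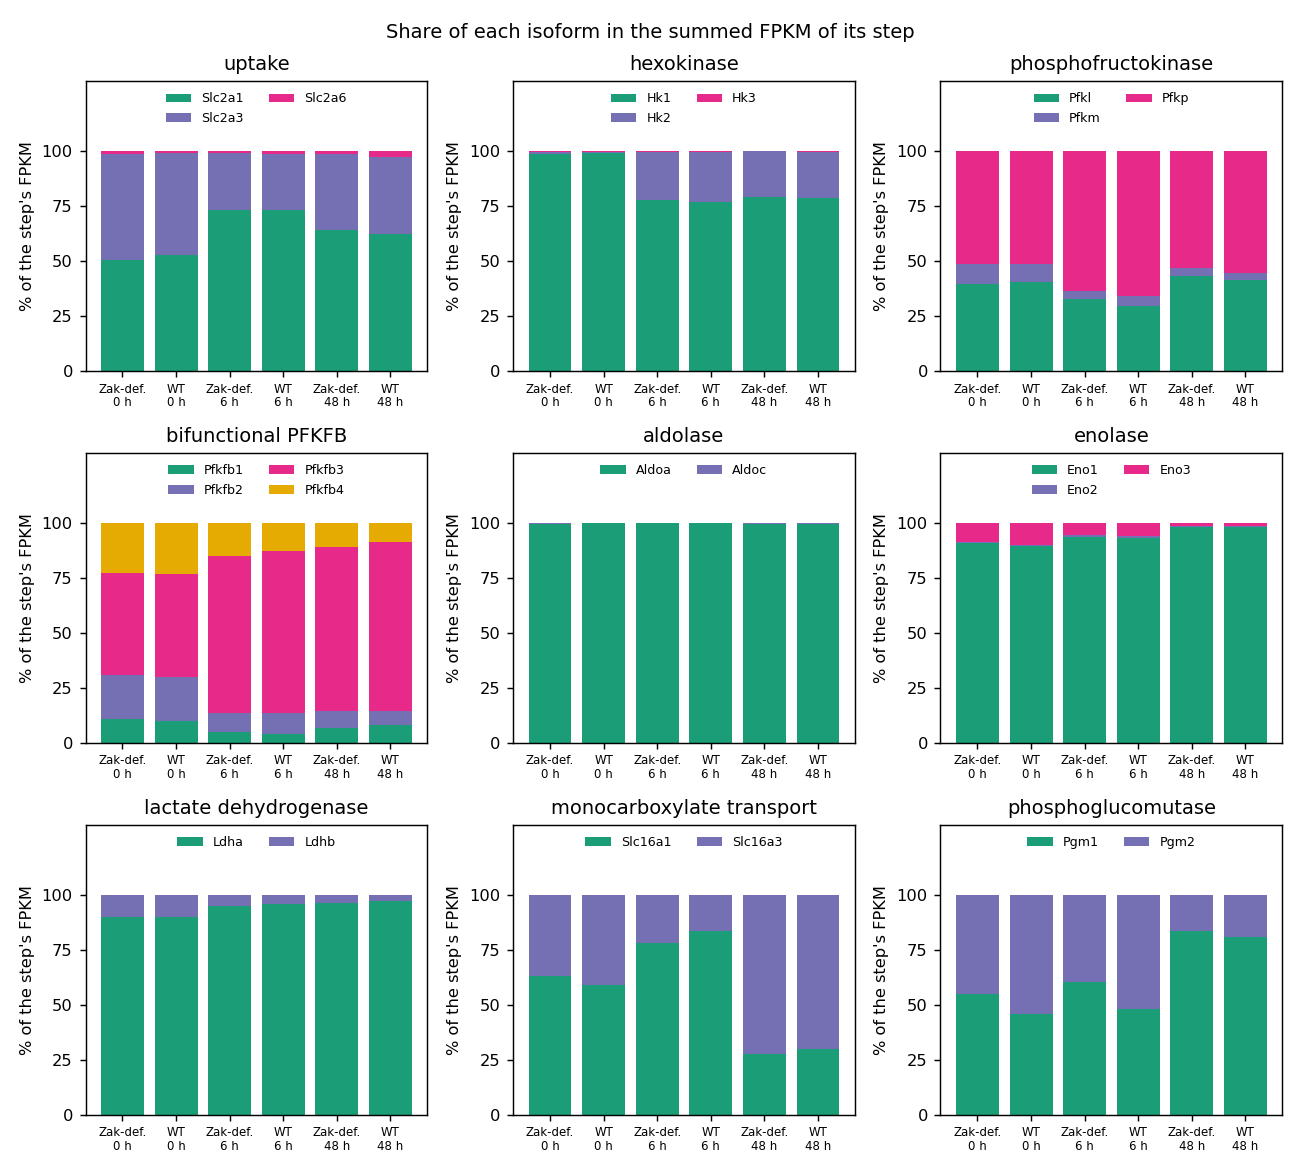
Stacked bars give the share of each isoform in the summed FPKM of its step, for 9 steps with more than 1 gene on the list, in each of the 6 libraries. The main isoform changes with time for lactate carriers and, under the WT label, for phosphoglucomutase; Hk2 appears at 6 h, with 22.0% of hexokinase FPKM under the Zak-deficient label and 22.9% in WT.

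At the side branches, Pgm1 and Pgm2 took different courses. Pgm1, a phosphoglucomutase that links glycolysis with glycogen and sugar nucleotides, had 13.1, 12.5 and 45.4 FPKM at 0, 6 and 48 h under the Zak-deficient label, against 12.3, 10.7 and 43.9 FPKM in WT. Pgm2, its relative, which acts mainly on pentose phosphates, stood at 10.8, 8.17 and 8.96 FPKM at 0, 6 and 48 h under the Zak-deficient label, against 14.5, 11.5 and 10.3 FPKM in WT. Pgm1 thus held 83.5% of the pair at 48 h under the Zak-deficient label and 81.0% in WT, against 54.8 and 45.8% at 0 h. Bpgm, which makes 2,3-bisphosphoglycerate, stayed just under 2-fold at 48 h, at 0.92 under the Zak-deficient label and 0.99 in WT.

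Pentose phosphate genes gained less than the glycolytic enzymes, and 3 of the 7 were counted higher at 48 h against 0 h under each label. Of all filtered genes, 18.4% were higher under the Zak-deficient label and 17.8% in WT, so this count lies above the share of all genes. G6pdx, the X-linked glucose 6-phosphate dehydrogenase that controls entry into the oxidative arm, measured 15.8, 19.5 and 37.9 FPKM at 0, 6 and 48 h under the Zak-deficient label, against 17.8, 19.8 and 40.5 FPKM in WT. Pgd, the enzyme that makes ribulose 5-phosphate and NADPH, had 21.4, 37.8 and 63.8 FPKM at 0, 6 and 48 h under the Zak-deficient label, against 20.4, 37.9 and 68.0 FPKM in WT. Tkt, the transketolase of the non-oxidative arm, stood at 29.5, 79.7 and 123 FPKM at 0, 6 and 48 h under the Zak-deficient label, against 31.0, 73.3 and 125 FPKM in WT. Tkt was the only gene of the 7 past 2-fold at 6 h, with a difference of 1.41 under the Zak-deficient label and 1.22 in WT. At that time 9.08% of all filtered genes were higher under the Zak-deficient label and 8.93% in WT, so 1 of 7 says little. Rpia, the ribose 5-phosphate isomerase, had reached its 48 h level by 6 h, with 40.1 FPKM at 48 h and 41.3 FPKM at 6 h under the Zak-deficient label, and 39.1 and 39.7 FPKM in WT. Pgls, Rpe and Taldo1, the lactonase, the epimerase and the transaldolase, were higher at 48 h by 0.28 to 0.74 on the log2 scale, below the 2-fold line. Taldo1, the second most abundant of the 7 at 48 h, differed least, at 0.29 under the Zak-deficient label and 0.28 in WT.

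The genes of oxygen and glucose sensing split in direction. Hif1a measured 46.7, 90.4 and 156 FPKM at 0, 6 and 48 h under the Zak-deficient label, against 51.0, 98.5 and 169 FPKM in WT. Bnip3, a mitophagy receptor and known Hif1a target on chromosome 7, had 2.95, 1.54 and 47.3 FPKM at 0, 6 and 48 h under the Zak-deficient label, against 4.16, 3.50 and 46.7 FPKM in WT. Txnip, an arrestin-like brake on glucose uptake whose transcription follows glucose metabolites, stood at 175, 75.04 and 46.0 FPKM at 0, 6 and 48 h under the Zak-deficient label, against 182, 84.8 and 44.9 FPKM in WT. Hif1a gained in 2 steps, Bnip3 was no higher at 6 h than at 0 h, and Txnip was lower at each later time. The Txnip difference was -1.21 under the Zak-deficient label and -1.09 in WT at 6 h and -1.90 under the Zak-deficient label and -1.99 in WT at 48 h, both against 0 h, and it was the only list gene counted lower in any comparison of times. Egln3, one of the prolyl hydroxylases that mark Hif1a for breakdown and itself a known Hif1a target, reached 3.02 FPKM at 48 h under the Zak-deficient label and 2.77 FPKM in WT, against 0.49 and 0.48 FPKM at 0 h. Egln1 and Egln2, named here outside the naming rule, were more abundant. Egln1 had 23.1 and 53.9 FPKM at 0 and 48 h under the Zak-deficient label, against 21.8 and 50.5 FPKM in WT. Egln2 stood between 28.8 and 50.9 FPKM.

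By how much of the 48 h level was already present at 6 h, the list spanned a wide range. Rpia, Slc16a1, Pfkfb3, Tkt, Pgd and Hif1a stood at 55.7% or more of their 48 h FPKM at 6 h in both genotypes. So did Taldo1, Rpe, Pgls, Pfkfb2, Pfkfb4, Eno3, Pgm2 and Txnip, and Hk3 below the filter. These percentages take no account of the 0 h level, so they do not separate an early gain from a high resting level. Rpia, for example, already had 25.3 FPKM at 0 h under the Zak-deficient label and 20.5 FPKM in WT. Slc2a1 and Hk2 stood at 48.3 and 43.2% under the Zak-deficient label and at 44.4 and 37.5% in WT. The main isoforms of the chain from aldolase on (Aldoa, Gapdh, Pgk1, Pgam1, Eno1, Pkm and Ldha) stood between 18.9% (Eno1 in WT) and 36.9% (Aldoa under the Zak-deficient label). Slc16a3, Bnip3, Tpi1 and Aldoc stood lowest, at 9.59, 3.25, 3.56 and 3.91% under the Zak-deficient label and 7.07, 7.49, 3.84 and 6.51% in WT. Under each label, Rpia, Tkt, Pgd, Slc2a1 and Hk2 thus stood nearer to their 48 h level at 6 h than Tpi1 and these main isoforms. Among other genes, so did Pfkp, at 42.7% under the Zak-deficient label and 40.1% in WT, and Gpi1, at 48.1 and 47.0%. Gpi1 was lower at 6 h than at 0 h, so its percentage is not an early gain. Myc, for reference, had 8.75, 185.1 and 87.0 FPKM at 0, 6 and 48 h under the Zak-deficient label, against 11.5, 166.3 and 98.8 FPKM in WT, with its highest level at 6 h.

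Further genes of the pathways were counted from separate lists. Of 30 genes of the hypoxia pathway and its known targets, 24 passed the filter; 13 were higher and 4 lower at 48 h against 0 h under the Zak-deficient label, and 13 higher and 3 lower in WT. The shares over all filtered genes were 18.4% higher and 12.0% lower under the Zak-deficient label and 17.8% and 12.3% in WT, and the counts of lower genes lie near them. At 6 h against 0 h, 5 were higher and 2 lower under the Zak-deficient label, where 9.08% of filtered genes were higher and 1.52% lower, and 5 were higher and 0 lower in WT, where 8.93% and 1.39% were. Ak4, a mitochondrial adenylate kinase that passed the filter only through its 48 h values, had 0.04, 0.79 and 20.95 FPKM at 0, 6 and 48 h under the Zak-deficient label, against 0.12, 0.94 and 21.2 FPKM in WT. Ddit4, an inhibitor of mTORC1 signalling, differed by 3.80 at 48 h under the Zak-deficient label and by 3.49 in WT. Fam162a differed by 3.81 and 3.48. Vegfa, the endothelial growth factor, was about as high at 6 h as at 48 h, with 12.1 FPKM at 48 h and 12.4 FPKM at 6 h under the Zak-deficient label, and 12.4 and 11.3 FPKM in WT. The lower genes, named after their values were seen, were Epas1, Arnt and Cited2 in both genotypes and Mxi1 under the Zak-deficient label. Epas1, which encodes Hif2a, differed by -2.48 under the Zak-deficient label and by -2.46 in WT, and Arnt, the partner of Hif1a, by -1.13 and -1.12.

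Few isoforms and side enzymes outside the main list passed 2-fold. Of 34 such genes 31 were measured and 15 passed the filter, and 2 were higher at 48 h against 0 h under each label. The higher ones were Bsg, the chaperone that carries the lactate transporters to the membrane, at 1.30 under each label, and Pgp, a phosphatase that clears side products of glycolysis, at 1.85 under the Zak-deficient label and 1.72 in WT. Of 11 further pentose phosphate genes 8 passed the filter, with 2 higher and 1 lower at 48 h under the Zak-deficient label and 1 higher and 1 lower in WT, all near the shares of filtered genes just given for 48 h. Dera, the deoxyribose phosphate aldolase, was higher at 48 h by 1.40 and 1.28 while Shpk, sedoheptulokinase, also named after its values were seen, was lower, at -1.15 and -1.27. Prps1l3 differed by 1.02 and 0.84. None of the 4 filtered genes of glucose-sensing arrestins and their regulators was higher at 48 h, and Arrdc2 was lower in WT, at -1.19, with -0.87 under the Zak-deficient label.

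Because many list genes were higher together, their promoters were searched for 2 short motifs. ACGTG is the core of the hypoxia response element bound by Hif1a with Arnt, and CACGTG, which contains ACGTG, is the E-box bound by Myc and its partners. Both strands were searched in RefSeq windows of the GRCm38.p6 build, from 250 bases before to 50 bases after each start, and 41 of the 42 genes had a window (Slc2a3 is named only). ACGTG occurred for 22 of the 41 genes (53.7%), beside 21.8% of all 27025 genes with a window and 30.1% of the 8400 among them that passed the expression filter. CACGTG occurred for 7 of the 41 (17.1%), beside 8.09% of all and 12.2% of filtered genes: Ldha, Bnip3, Slc16a1, Pfkfb3, Pfkfb2, Pfkm and Hif1a. A match is a string of letters, not a bound site, and no factor binding was measured here.

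The 250 bases before the start are shown for 7 genes whose values stand out above, 5 with a match and 2 without, each 5′ to 3′ on the strand of its gene, with ACGTG or its reverse complement in capitals. Hk2 (chr6:82774455-82774704, minus strand), Pgk1 (chrX:106186850-106187099, plus strand), Ldha (chr7:46845554-46845803, plus strand, 1 of its 2 windows, before a start inside the annotated gene), Slc16a3 (chr11:120948817-120949066, plus strand, before a start that lies inside the span of the gene given above), Bnip3 (chr7:138909507-138909756, minus strand), Tpi1 (chr6:124814159-124814408, minus strand) and Txnip (chr3:96557707-96557956, plus strand) read as follows.
Hk2: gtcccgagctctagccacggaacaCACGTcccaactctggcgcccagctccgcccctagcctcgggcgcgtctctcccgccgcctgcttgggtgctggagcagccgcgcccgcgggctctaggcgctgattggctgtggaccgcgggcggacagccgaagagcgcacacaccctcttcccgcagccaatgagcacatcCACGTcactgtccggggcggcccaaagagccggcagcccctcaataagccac
Pgk1: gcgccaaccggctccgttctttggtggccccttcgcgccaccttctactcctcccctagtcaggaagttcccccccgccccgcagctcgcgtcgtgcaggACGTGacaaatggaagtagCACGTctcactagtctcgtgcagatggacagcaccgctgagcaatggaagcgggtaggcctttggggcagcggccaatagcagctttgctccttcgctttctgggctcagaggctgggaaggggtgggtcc
Ldha: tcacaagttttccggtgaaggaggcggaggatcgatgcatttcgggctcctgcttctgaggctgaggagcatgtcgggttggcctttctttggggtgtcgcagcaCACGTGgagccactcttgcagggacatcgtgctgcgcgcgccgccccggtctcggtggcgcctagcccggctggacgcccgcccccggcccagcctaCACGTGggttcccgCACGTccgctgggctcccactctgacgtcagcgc
Slc16a3: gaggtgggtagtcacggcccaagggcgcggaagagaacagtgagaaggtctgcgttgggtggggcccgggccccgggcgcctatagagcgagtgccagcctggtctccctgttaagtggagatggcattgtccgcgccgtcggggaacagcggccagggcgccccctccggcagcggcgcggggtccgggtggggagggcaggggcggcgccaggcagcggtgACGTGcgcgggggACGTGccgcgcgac
Bnip3: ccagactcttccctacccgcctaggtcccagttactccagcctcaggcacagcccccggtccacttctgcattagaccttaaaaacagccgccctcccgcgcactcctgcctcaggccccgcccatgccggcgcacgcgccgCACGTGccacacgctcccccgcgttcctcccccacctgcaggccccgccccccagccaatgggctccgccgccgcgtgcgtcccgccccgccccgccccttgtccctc
Tpi1: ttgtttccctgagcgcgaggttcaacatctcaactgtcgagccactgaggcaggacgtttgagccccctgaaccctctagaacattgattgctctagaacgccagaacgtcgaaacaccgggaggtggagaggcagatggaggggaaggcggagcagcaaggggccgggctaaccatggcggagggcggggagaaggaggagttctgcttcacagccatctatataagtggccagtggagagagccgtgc
Txnip: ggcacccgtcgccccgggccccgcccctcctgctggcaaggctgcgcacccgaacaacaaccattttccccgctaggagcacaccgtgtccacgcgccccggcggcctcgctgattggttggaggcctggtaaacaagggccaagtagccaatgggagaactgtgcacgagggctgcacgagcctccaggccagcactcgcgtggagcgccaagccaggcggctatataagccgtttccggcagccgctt
CACGTG reads the same on both strands, so each such string holds 2 overlapping ACGTG matches; Ldha held 2 of them and Bnip3 held 1. Hk2, Pgk1 and Slc16a3 each held 2 ACGTG matches in these bases. For Tpi1 and Txnip, whose levels differed most in opposite directions, the letters were not in this window.

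Between the labels, the list was nearly level at each time. At 0, 6 and 48 h, 0 of the 40 filtered list genes were 2-fold higher and 0 were 2-fold lower under the Zak-deficient label, where 0.222, 0.116 and 1.8% of all filtered genes were higher and 0.0483, 0.126 and 0.435% were lower. A share that small of 40 genes would itself be near 0, so the counts say little about the list. The median difference, the library labelled Zak-deficient minus WT, was -0.04, -0.01 and -0.04 over the 42 genes, beside -0.01, -0.02 and -0.01 over all filtered genes. In size, regardless of direction, the list genes differed at the median by a factor of 1.06, 1.09 and 1.05, beside 1.06, 1.10 and 1.06 over all filtered genes. Gapdh, for example, had 3000.4 FPKM at 48 h under the Zak-deficient label and 3102.5 FPKM in WT, and Pkm had 1345 and 1375 FPKM. With 1 library a group this does not show that the genotypes are alike.

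A few genes lay farther apart between the labels. Bnip3 had 1.54 FPKM at 6 h under the Zak-deficient label and 3.50 FPKM in WT, a difference of -0.83 or 1.77-fold, beside a size of 1.35-fold at the 95th percentile of all filtered genes. At 0 h its difference was -0.39, and at 48 h, when its level was 47.3 and 46.7 FPKM, it was 0.02. Pgm2 was lower under the Zak-deficient label at all 3 times, by -0.40, -0.45 and -0.18, with 10.8 FPKM at 0 h against 14.5 FPKM in WT. Slc2a6, which did not pass the filter, differed by -0.73 at 48 h. Slc16a3 differed by 0.40 at 6 h, and Pfkfb4 and Aldoc by 0.33 and 0.32 at 48 h. These 3 lay within the 95th percentile of size, which was 1.35-fold at 6 h and 1.41-fold at 48 h. As for the responses, no list gene differed between the genotypes by 1 or more in its change with time, where 0.174% of filtered genes had a higher and 0.406% a lower response by that size at 6 h, and 1.25% and 0.532% at 48 h. At 6 h against 0 h the Zak-deficient response minus the WT response ran from -0.46 (Bpgm) to 0.51 (Slc16a3), and at 48 h against 0 h from -0.77 (Slc2a6) to 0.40 (Bnip3).

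**Figure D5:**
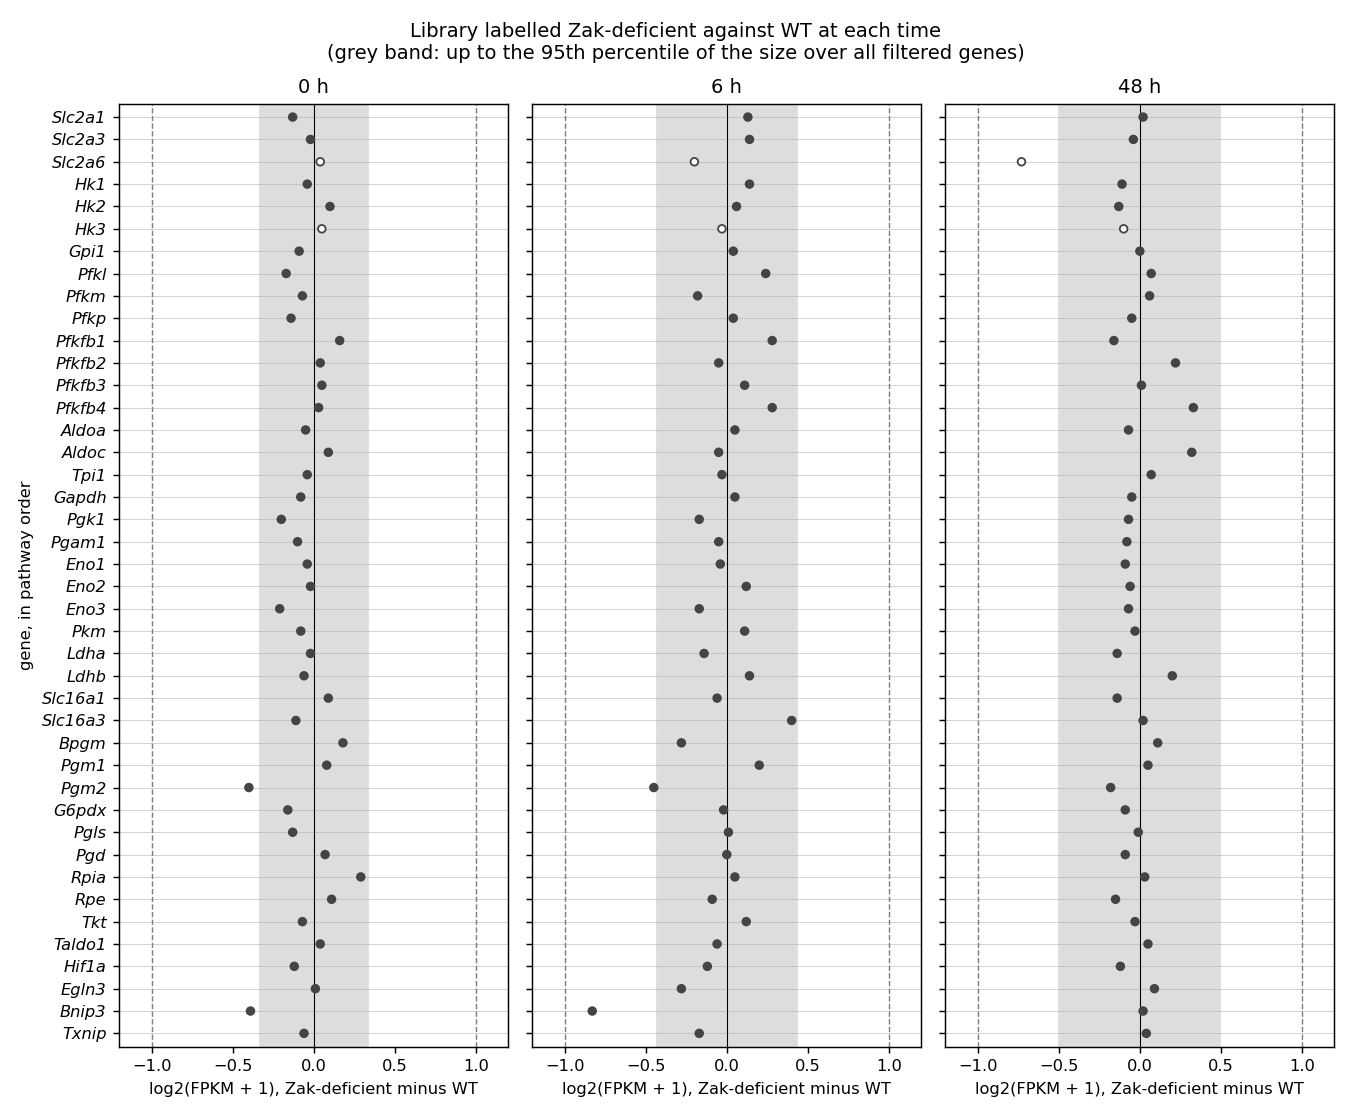
Points give log2(FPKM + 1) in the library labelled Zak-deficient minus that in WT for each gene (rows) at 0, 6 and 48 h; open points are the 2 genes under the filter and dashed lines mark 2-fold. Outside the grey band that holds 95% of all filtered genes by size lie Pgm2 (-0.40) and Bnip3 (-0.39) at 0 h, Bnip3 (-0.83) and Pgm2 (-0.45) at 6 h, and Slc2a6 (-0.73) at 48 h.

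Some values may include reads of near-identical copies, and their part in the results was not tested. Of the 50-base words in the annotated transcripts of a gene, the share that recurs in another gene was 68.0% for Pgk1, 59.1% for Bnip3, 58.4% for Gapdh, 49.5% for Eno1 and 41.5% for Pgam1, and 0% for Hk2 and Slc16a3. The sources used here do not say how the counting split such reads. For Gapdh and Eno1 much of the shared sequence lies in genes of the table, Gapdh-ps15 and Eno1b. Eno1b had 9.82, 4.32 and 1.83 FPKM at 0, 6 and 48 h under the Zak-deficient label, against 0.23, 0 and 0.49 FPKM in WT. Adding it to Eno1 gave 157.6, 169.4 and 843.6 FPKM under the Zak-deficient label and 152.0, 170.0 and 897.9 FPKM in WT, which leaves the course of Eno1 as described.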

How the data were processed

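The values used were FPKM per gene, deposited by the authors in a single table of 6 libraries. Per the submitters' processing notes, Bowtie, RSEM and the mm10 build were used. The sources used here give neither their versions nor how reads matching several genes were shared out. FPKM gives no counts, so no depth, interval or count test could be had. Here, log2(FPKM + 1) was compared between 2 libraries at a time with Python 3.11.15, numpy 2.4.6 and pandas 2.3.3 (figures with matplotlib 3.10.9), in 6 comparisons within a genotype and 3 between the labels. The tally covers genes that averaged at least 1 FPKM across the libraries, and a difference had to reach 2-fold. The procedure was checked on simulated data. All list genes may be named; further genes are named when past 2-fold with a mean of 5 FPKM or more, up to 6 per list, and exceptions are marked. The 42 genes and the further lists were chosen with earlier results of these data known. Transcript copies were searched with 50-base words. Gene positions and promoter sequences are from RefSeq (GRCm38.p6, with the primary assembly of mm10). Protein identity between isoforms was planned and not run.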

Additional observations from a re-analysis of the deposited data

Results flagged for a closer look

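In 5 cases a filtered list gene's change with time ran in opposite directions under the 2 labels, with 1 library a group, and the difference was not tested. The share of all filtered genes that did so was not counted, so the 5 cases say little about the list. Every one of these changes lay between -0.16 and 0.27, close to no change, where a small shift in a library can turn the direction. At 48 h against 0 h, the response of Pfkfb1 was -0.05 under the Zak-deficient label and 0.27 in WT, a difference of -0.32. At 48 h against 6 h, Pfkfb2 responded by 0.11 and -0.16, a difference of 0.27, and Pgm2 by 0.12 and -0.15, also a difference of 0.27. At 6 h against 0 h, Aldoc responded by -0.12 and 0.02, a difference of -0.14, and Pgls by 0.11 and -0.03, a difference of 0.14. Aldoc stood at only 0.16 to 0.26 FPKM at these times.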

How the results depend on the processing

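The tally of list genes was recomputed with other pseudocounts, size rules, filters and scalings. Another scaling of the libraries left all 54 counts within 1.5 times of the values above. With a common sum, 25 list genes were higher at 48 h against 0 h under each label, and the median of all filtered genes at 48 h against 0 h became -0.06 under the Zak-deficient label and -0.09 in WT. A pseudocount of 0.1 FPKM gave 1 gene, Bnip3, lower at 6 h under the Zak-deficient label than in WT; a pseudocount of 5 FPKM gave 22 and 21 genes higher at 48 h against 0 h. A 1.5-fold rule gave, at 6 h against 0 h, 18 higher and 3 lower under the Zak-deficient label and 18 higher and 2 lower in WT; it gave 1 lower under each label at 48 h against 6 h, 3 lower in WT at 48 h against 0 h, and 1 lower under the Zak-deficient label than in WT at 6 h. A 4-fold rule gave 2 higher and 0 lower under each label at 6 h against 0 h, 17 higher under the Zak-deficient label and 15 in WT with 0 lower at 48 h against 0 h, and 9 higher under each label at 48 h against 6 h. For these rules the cause is the rule itself. The share of all filtered genes was counted only at the main settings. The recomputed counts therefore do not say how far the list stood apart from all genes at the other settings. The difference of Hk2 at 48 h against 0 h was 6.03 and 6.70 with a pseudocount of 0.1 FPKM, and 2.09 and 2.22 with 5 FPKM, under the Zak-deficient label and in WT. No difference past 2-fold changed direction. Those of the list genes that did lay within 0.09 of 0 on the log2 scale; with a common sum, the list's median between the labels at 6 h became 0.06 and Pfkl in WT at 6 h against 0 h became -0.01, and with median ratio scaling Bnip3 between the labels at 48 h became -0.02. No paired analysis was possible because each group has 1 library and the labels carry no replicate numbers; a fit that pairs the genotypes by time was not run. Depth is unknown, so the precision of values under a few FPKM cannot be given.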
